A study of Mus musculus with 9 samples.

Results

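Hand2, Hand1, Mef2a, Mef2c, Mef2d, Nkx2-5, Isl1, Meis1, Srf and Myocd are transcription factors and a coactivator that build or maintain heart muscle, apart from the GATA and T-box families. The 10 genes were taken by symbol from a table of 38924 mouse genes, and each matched 1 row. They were measured by RNA sequencing in primary cardiac fibroblasts of adult RosaCas9-EGFP mice on a C57BL/6 background, 8 to 10 weeks old, sorted as CD90 positive and negative for CD45 and CD31. The study states that its adult mice were male. Cells were sorted after 3 days of culture and transfected 6 days after replating. All groups carried Cas9 and all were transfected at 80 to 90% confluency, so the controls shared the nuclease and the lipid reagent. The scrambled guides have no listed target, so the controls did not share the cutting of a target gene. The groups were control (scrambled guide RNAs), Gata4 KD (guides to Gata4) and Tbx20 KD (guides to Tbx20), with 3 libraries each, lettered a, b and c. The study calls the libraries of a condition biological replicates. Whether each was a separate animal or culture is not given in the sources used here, so the p-values measure the spread between these libraries.

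In the embryo these factors act in layers. NKX2-5, ISL1 and the HAND factors mark heart progenitors and chambers and work on shared enhancers with GATA4 and TBX20. MEF2 proteins bind an AT-rich site in muscle and stress-response genes and are held silent by class II histone deacetylases. SRF binds the CArG box and is steered by its partners: myocardin (Myocd) and the actin-regulated MRTF coactivators direct it to cytoskeletal and contractile genes, and the ETS factors of the ELK group direct it to immediate early genes. MEIS1 is a TALE homeodomain protein that binds DNA with partners of its own class. In bulk RNA, fewer cells expressing a gene and less RNA per cell cannot be told apart.

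The guides are shown because they define the groups. The gene-matching part is in lower case and the adjoining PAM, which Cas9 requires, is in capitals. All 4 matched coding exons of GRCm38 transcripts: chr14:63204711-63204730 (minus strand, exon 3) and chr14:63240581-63240600 (plus strand, exon 2) for Gata4, and chr9:24770708-24770727 (minus strand, exon 2) and chr9:24765732-24765751 (plus strand, exon 4) for Tbx20.
Gata4_sgRNA1: cagagagtgtgtcaattgtgGGG
Gata4_sgRNA3: gcaggactgggctgtcgaagGGG
Tbx20_sgRNA2: caaattccatgaactgggcaCGG
Tbx20_sgRNA3: gagctgctcgccagtaaaggGGG

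Promoter stretches are shown for 2 members, Srf because its window held the binding site of its own protein and Hand2 because its window held a GATA motif. RefSeq windows (GRCm38.p6) around the annotated starts were matched for 8 of the 10 genes, in 10 windows, and not for Hand1 and Myocd. Positions count from the annotated start, with negative numbers upstream. The Srf stretch (chr17:46556205-46556274, minus strand) ran from -112 to -43, and its capitals mark 2 CArG boxes, starting at -82 and -62. The Hand2 stretch (chr8:57320781-57320850, plus strand) ran from -202 to -133, and its capitals mark the reverse complement of AGATAA at -172.
Srf: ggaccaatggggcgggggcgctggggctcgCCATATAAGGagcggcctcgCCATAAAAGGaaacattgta
Hand2: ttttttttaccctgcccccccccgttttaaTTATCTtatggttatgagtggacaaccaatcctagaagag

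Both strands were searched for 5 motifs, and no matches of different motifs overlapped in the members' windows. A CArG box was present in 1.63% of 32851 promoter windows and among the members only in that of Srf, and AGATAA in 11.2% of windows and among the members in those of Hand2 and Isl1. The T-box half-site AGGTGT (13.7% of windows) was found in 1 of the Mef2c windows, the MEF2 site (1.86%) in that of Mef2a, and the E-box CANNTG (72.3%) in 6 of the 10. Such matches describe letters and not binding.

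Depth and the identity of the cells bear on every value below. Total counts ranged from 31214828 to 41950397 per library. The 10 fibroblast markers were high in every library (10933 to 17680 CPM summed; CPM, counts scaled to library size), while the 12 cardiomyocyte markers summed to 0.885 to 2.10 CPM, with Myl3 and Nppa at 0. Summed markers of smooth muscle and pericytes were at 186 to 211 CPM, of epicardium 94.5 to 158 CPM and of endothelium 42.5 to 62.7 CPM. Those of leukocytes summed to 26.0 to 56.8 CPM and those of neural crest and Schwann cells to 5.04 to 8.52 CPM. Single genes carried a large part of the sums of smooth muscle (Smtn, 90.8 to 112 CPM), epicardium (Aldh1a2, 55.5 to 148 CPM) and endothelium (Tek, 16.2 to 35.7 CPM). In each of these lists 1 gene had at most 10 counts in any library, namely Kcnj8, Krt8 and Cldn5. The sums are therefore not levels of those cell types. Gata4 fell in Gata4 KD (log2 fold change -1.55, adjusted p 0.00272 by the quasi-likelihood test of edgeR). Against control, the log2 fold change of Tbx20 in Gata4 KD was -0.52 and that of Gata4 in Tbx20 KD was 0.23. Their unadjusted p were 0.0628 and 0.0125 in edgeR, and neither passed after adjustment. Tbx20 was at 320 to 428 CPM in Tbx20 KD and 720 to 1275 CPM in control, so these groups did not overlap. Its log2 fold change there was -1.35 (95% interval -1.82 to -0.87) with an unadjusted p of 0.000154 in edgeR. The adjusted p of 0.748 in edgeR did not pass. That adjustment ran over 14547 genes, of which 1 passed, whereas Tbx20 was the target of the guides. Tbx20 RNA was thus lower in the libraries labelled Tbx20 KD.

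Of the 10 factors, 7 were expressed well enough to be tested, and none of the 7 passed an adjusted p of 0.05 in any comparison by the quasi-likelihood test of edgeR. In Gata4 KD against control 0 of 7 passed, against 0.380% of all 14468 genes tested, and 0 of 7 had an unadjusted p under 0.05, against 8.54%. In Tbx20 KD against control 0 of 7 passed, against 0.00687% of 14547 genes, and 0 of 7 had an unadjusted p under 0.05, against 2.69%. DESeq2, edgeR's exact test and limma-voom also called 0 of 7 in each of these comparisons. The median absolute log2 fold change of the 7 was 0.10 in Gata4 KD and 0.07 in Tbx20 KD, beside 0.11 and 0.08 over all genes. The 95% intervals show what remained possible: for Mef2d, Srf, Meis1 and Hand2 no bound was farther from 0 than 0.34 on the log2 scale in either knockdown, whereas for Myocd the bounds reached -0.72 and -1.18.

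**Figure D1:**
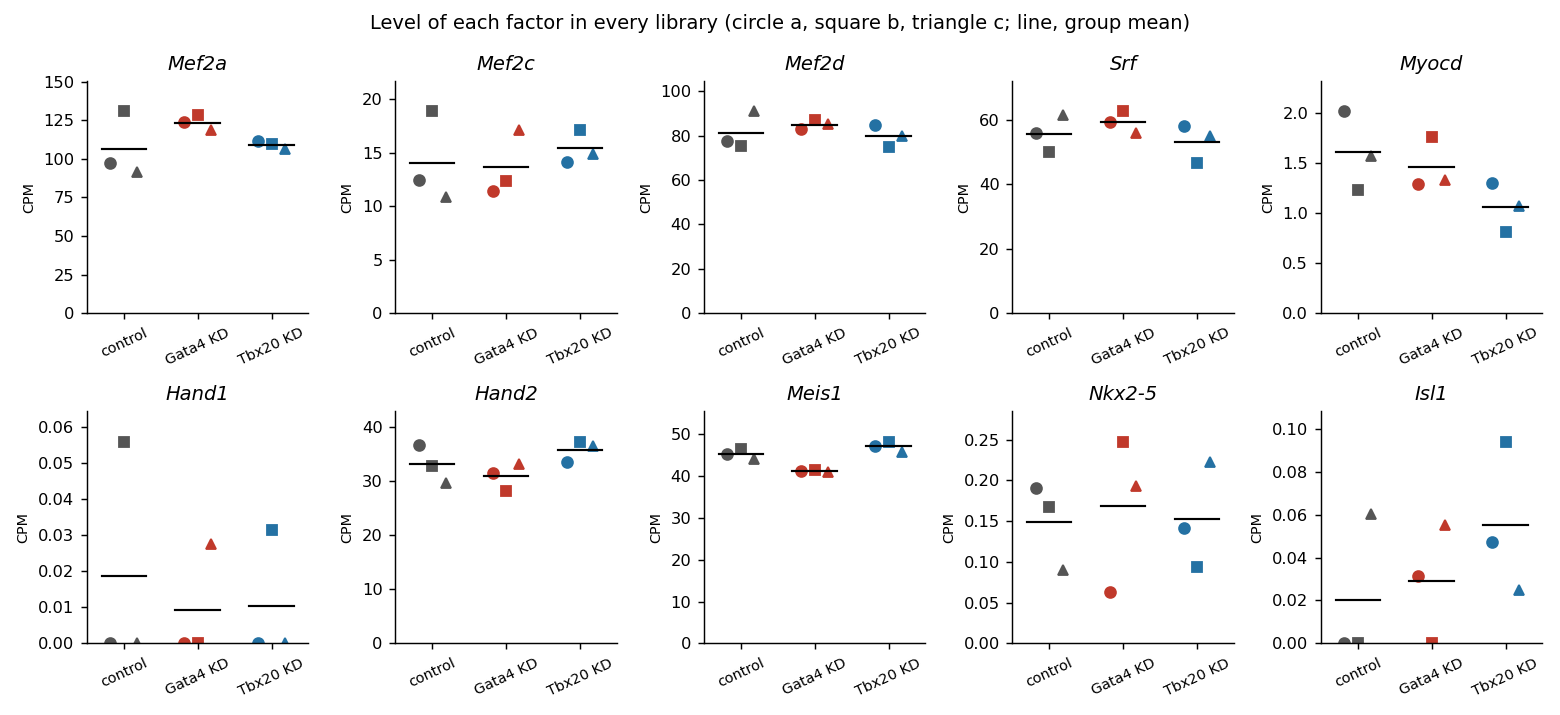
Level in CPM (vertical axis, from 0) of each of the 10 factors in every library of control, Gata4 KD and Tbx20 KD, with circles for library a, squares for b, triangles for c and a line at the group mean. Meis1 lay between 40.8 and 41.4 CPM in Gata4 KD and above that in every other library, while Mef2c was spread from 10.9 to 18.9 CPM within control alone.

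Levels between genes were compared per kilobase of merged exons in the control libraries. Srf was highest at 19.3 ± 2.02 CPM per kilobase (SD, n = 3), followed by Hand2 at 14.1 ± 1.5 and Mef2d at 13.6 ± 1.41, whose ranges overlapped. Mef2a (7.25 ± 1.45), Meis1 (4.29 ± 0.109), Mef2c (0.894 ± 0.270), Myocd (0.250 ± 0.061) and Nkx2-5 (0.0870 ± 0.0305) followed, each range clear of its neighbours. Hand1 (0.00934 ± 0.0162) and Isl1 (0.00507 ± 0.00878) overlapped at the bottom. Srf thus stood above 81.8% of 14591 genes and Hand2 above 75.7%, against 11.5% for Myocd. The order among the upper 4 depended on the length used: with the longest transcript in place of merged exons, Srf, Mef2a, Mef2d and Hand2 followed each other at 21.3, 19.2, 15.0 and 14.1 CPM per kilobase, each overlapping its neighbour.

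**Figure D2:**
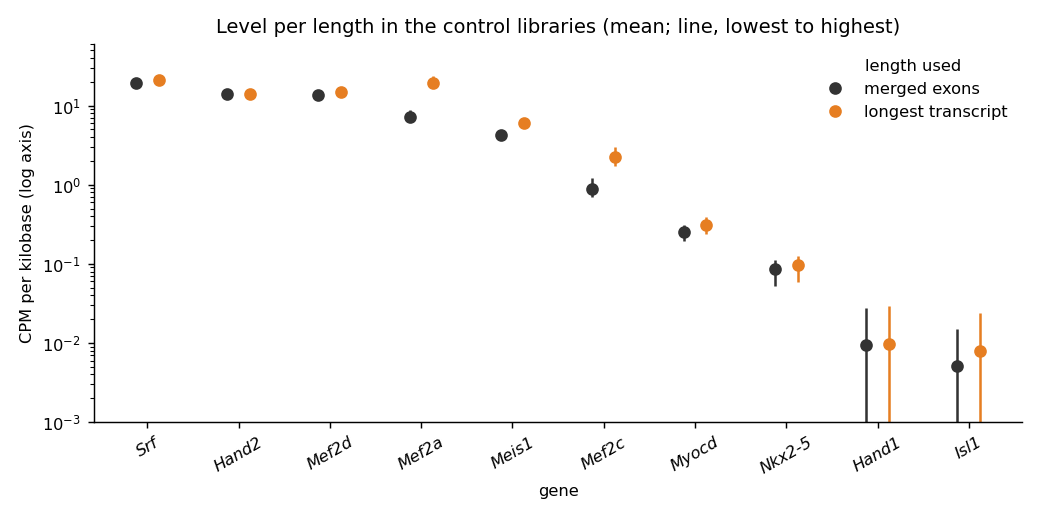
Mean CPM per kilobase (log axis) of the 10 factors over the 3 control libraries, with lines from the lowest to the highest library, for length taken as merged exons or as the longest transcript. A line that runs to the lower edge reaches 0; Mef2a and Mef2c moved most with the choice of length.

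The progenitor factors Nkx2-5, Isl1 and Hand1 were at or near the floor of detection. Nkx2-5, a homeodomain factor of heart progenitors and muscle (chr17:26838664-26845009), had 7, 6 and 3 counts in control, 2, 9 and 7 in Gata4 KD and 6, 3 and 9 in Tbx20 KD. It was therefore present in all 9 libraries but at no more than 0.248 CPM, and the groups overlapped. Isl1, a LIM homeodomain factor of the second heart field (chr13:116298281-116309689), had 0, 0 and 2 counts in control, 1, 0 and 2 in Gata4 KD and 2, 3 and 1 in Tbx20 KD. Hand1, the left-ventricular bHLH factor (chr11:57828705-57832818), had 2 counts in control b, 1 in Gata4 KD c, 1 in Tbx20 KD b and 0 in the other libraries. A count of 0 allows up to 3 counts, which was 0.0709 to 0.0945 CPM in these libraries, for counting error only. No difference in these 3 genes was detectable at this depth, and none passed the filter on low counts.

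Hand2, by contrast, was well expressed, and it supplied at least 99.8% of the length-scaled HAND family signal in every library. This bHLH factor of the right ventricle and of limb and neural crest mesenchyme lies at chr8:57320983-57324633 on the plus strand, where Hand2os1, not analysed here, overlaps it. Its level was 36.8, 32.9 and 29.7 CPM in control a, b and c, 31.6, 28.2 and 33.2 CPM in Gata4 KD and 33.6, 37.4 and 36.6 CPM in Tbx20 KD. Both knockdowns overlapped control, with the log2 fold change at -0.10 (95% interval -0.34 to 0.15, adjusted p 0.861 in edgeR) in Gata4 KD and 0.12 (-0.10 to 0.34, adjusted p 1.0) in Tbx20 KD. The difference between the knockdowns is given below.

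The 3 MEF2 genes had unlike levels and unlike spread. Mef2d (chr3:88142372-88172086) was at 77.7, 75.2 and 90.9 CPM in control, 82.8, 86.8 and 85.1 CPM in Gata4 KD and 84.9, 74.8 and 79.6 CPM in Tbx20 KD. All groups overlapped, and its log2 fold changes were 0.06 (95% interval -0.14 to 0.27) and -0.02 (-0.22 to 0.19) in Gata4 KD and Tbx20 KD. Mef2a (chr7:67231163-67372858) was at 96.9, 131 and 91.5 CPM in control, 123, 128 and 118 CPM in Gata4 KD and 112, 109.6 and 106 CPM in Tbx20 KD. Control b was the highest library of all 9 and the other controls were the lowest, so the control range enclosed both knockdowns. The log2 fold change of Mef2a in Gata4 KD was 0.21 (-0.09 to 0.52, adjusted p 0.740 in edgeR), and without control b it was 0.39 with an adjusted p of 0.0517, the closest any member came to the threshold.

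Mef2c, the MEF2 gene needed earliest in heart muscle (chr13:83504034-83667080), was the lowest and most variable of the MEF2 genes among the factors. It was at 12.4, 18.9 and 10.9 CPM in control, 11.4, 12.4 and 17.1 CPM in Gata4 KD and 14.1, 17.1 and 14.9 CPM in Tbx20 KD. Single libraries, control b, Gata4 KD c and Tbx20 KD b, were high in each group, and all groups overlapped. The log2 fold change was -0.04 (95% interval -0.56 to 0.48) in Gata4 KD and 0.14 (-0.32 to 0.59) in Tbx20 KD, and without control b these values were 0.23 and 0.42, neither passing. Because Mef2c is also expressed in endothelium, that marker list is given beside it. Of its 10 markers Tek was the highest, at 16.2 to 35.7 CPM over all libraries, and Cldn5 had at most 3 counts. The 10 markers summed to 42.5 to 61.3 CPM in control, 43.7 to 62.7 CPM in Gata4 KD and 46.4 to 59.2 CPM in Tbx20 KD. Control b (61.3 CPM) and Gata4 KD c (62.7 CPM) were highest of their groups for the markers too, and Tbx20 KD b (57.1 CPM) was not; the part of endothelial RNA in Mef2c was not tested.

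In the summed length-scaled signal of Mef2a, Mef2c and Mef2d, in which Mef2b was not included, Mef2d led. Its share was 62.6 ± 6.70% (SD, n = 3) in control, 60.5 ± 0.312% in Gata4 KD and 61.3 ± 1.66% in Tbx20 KD. Mef2a held 33.3 ± 5.60%, 35.8 ± 1.13% and 34.2 ± 1.07%, and Mef2c 4.10 ± 1.10%, 3.70 ± 0.827% and 4.52 ± 0.614% in the same order. The ranges of the 3 groups overlapped for each gene. Which gene led rested on the length: with the longest transcript Mef2a led with 52.3% in control and Mef2d held 41.6%, since the merged exons of Mef2a span 14681 bases and its longest transcript 5538.

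Srf, the MADS-box factor itself, was expressed evenly. It lies at chr17:46548329-46556175 and was at 55.7, 49.9 and 61.5 CPM in control, 59.4, 62.6 and 55.9 CPM in Gata4 KD and 58.0, 46.5 and 54.8 CPM in Tbx20 KD. All groups overlapped. Its log2 fold change was 0.09 (95% interval -0.13 to 0.31, adjusted p 0.858 in edgeR) in Gata4 KD and -0.06 (-0.30 to 0.19, adjusted p 1.0) in Tbx20 KD.

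Myocd, the coactivator that turns SRF to muscle genes (chr11:65176561-65269989), was scarce. It was at 2.01, 1.23 and 1.57 CPM in control, 1.29, 1.76 and 1.33 CPM in Gata4 KD and 1.30, 0.815 and 1.07 CPM in Tbx20 KD, from 26 to 74 counts per library. Control b lay below Tbx20 KD a, so these groups overlapped. The largest member difference of either knockdown against control was that of Myocd in Tbx20 KD, -0.57 on the log2 scale (95% interval -1.18 to 0.03, unadjusted p 0.0594 and adjusted p 1.0 in edgeR), and in Gata4 KD it was -0.13 (-0.72 to 0.45). Among SRF and its myocardin-type coactivators, Myocd made up 0.764 ± 0.171% of the length-scaled signal in control, against 22.3 ± 0.303% for Mrtfa and 17.9 ± 2.16% for Mrtfb.

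Meis1 (chr11:18879817-19018985) was the steadiest of the factors. It was at 45.1, 46.4 and 44.1 CPM in control, 41.2, 41.4 and 40.8 CPM in Gata4 KD and 47.1, 48.2 and 45.8 CPM in Tbx20 KD. All Gata4 KD libraries lay below all controls, which held for 1 of 7 members; 13.8% of all genes tested did not overlap in that comparison. The log2 fold change was -0.14 (95% interval -0.30 to 0.03, unadjusted p 0.0993 and adjusted p 0.694 in edgeR), which did not pass. In Tbx20 KD it was 0.07 (-0.09 to 0.22), and 0 of 7 members had groups that did not overlap, against 6.74% of all genes. Of the 75 base windows in Meis1 transcripts 8.66% also occur in Gm37818, so a part of its count could be shared.

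**Figure D3:**
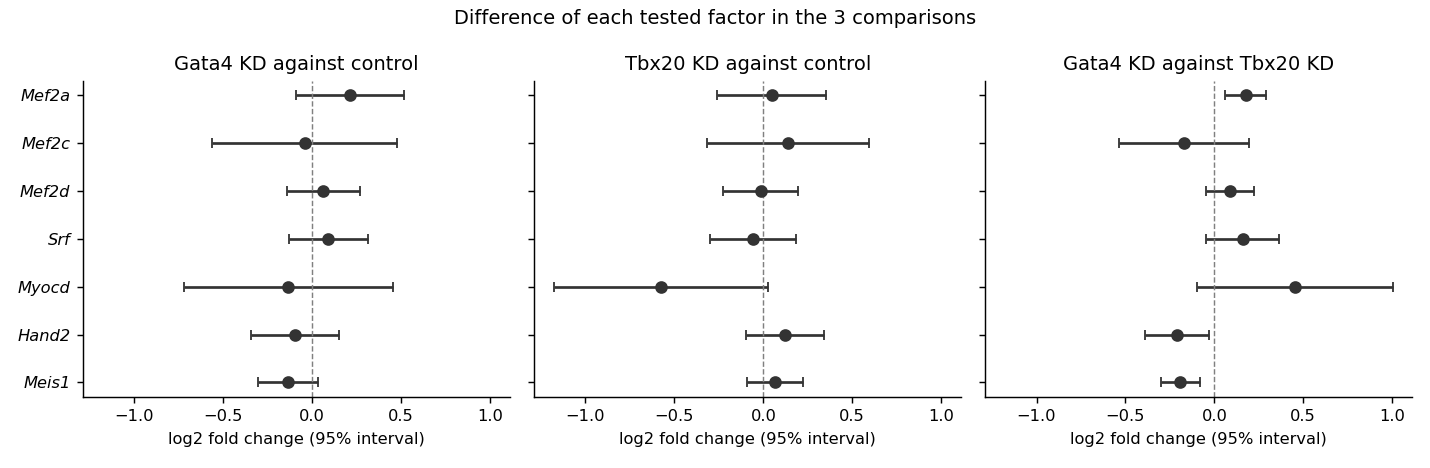
Log2 fold change (horizontal axis) with 95% interval of the 7 tested factors in each of the 3 comparisons, the first group minus the second. Every interval crosses 0 in both comparisons with control; those of Mef2a, Hand2 and Meis1 do not in the direct comparison, where no adjusted p passed 0.05.

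In a further comparison Gata4 KD was set directly against Tbx20 KD, without the controls. Here 0 of 7 members passed, against 1.44% of 14477 genes (0.815% higher and 0.622% lower), and DESeq2, the exact test and limma-voom called 0 too. An unadjusted p under 0.05 was found for 3 of 7, against 16.7% of all genes, and the groups did not overlap for the same 3, against 23.0%. The median absolute log2 fold change of the 7 was 0.18, beside 0.11 over all genes. Meis1 was lower in Gata4 KD than in Tbx20 KD by a log2 fold change of -0.19 (95% interval -0.30 to -0.08, adjusted p 0.104 in edgeR). Hand2 stood at -0.21 (-0.39 to -0.03, adjusted p 0.226), and Mef2a, at 0.18 (0.06 to 0.29, adjusted p 0.142), pointed the other way. The other 4 overlapped, at 0.45 (-0.10 to 1.0) for Myocd, 0.16 (-0.05 to 0.36) for Srf, 0.09 (-0.04 to 0.22) for Mef2d and -0.17 (-0.54 to 0.20) for Mef2c. Over the alternative settings the adjusted p of Meis1 ranged from 0.0603 to 0.362, that of Mef2a from 0.0654 to 0.617 and that of Hand2 from 0.0937 to 0.563.

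The factors differed in how much they varied between libraries of a group. The biological coefficient of variation in a fit of all 9 libraries was 6.33% for Meis1, lower than that of all but 0.751% of 14782 genes, and 8.06% for Mef2d, 9.03% for Hand2, 9.47% for Srf and 10.7% for Mef2a, beside a median of 10.9% over all genes. It was 18.4% for Mef2c and 19.6% for Myocd, above 80.0% and 82.4% of genes. The variation had a shared pattern: where Mef2c was high in a group, Srf was low. In control b Mef2c was 0.46 above and Srf 0.15 below the group mean on the log2 scale, in Gata4 KD c 0.35 above and 0.08 below, and in Tbx20 KD b 0.16 above and 0.18 below. The same libraries stood, each in its group, farthest toward the same end of the first principal component of all genes' deviations from the group means. This component held 33.7% of the variance, so the variation of Mef2c and Srf ran with that of many genes. The other members did not all follow: Mef2a was 0.32 above its group mean in control b and 0.06 below it in Gata4 KD c.

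**Figure D4:**
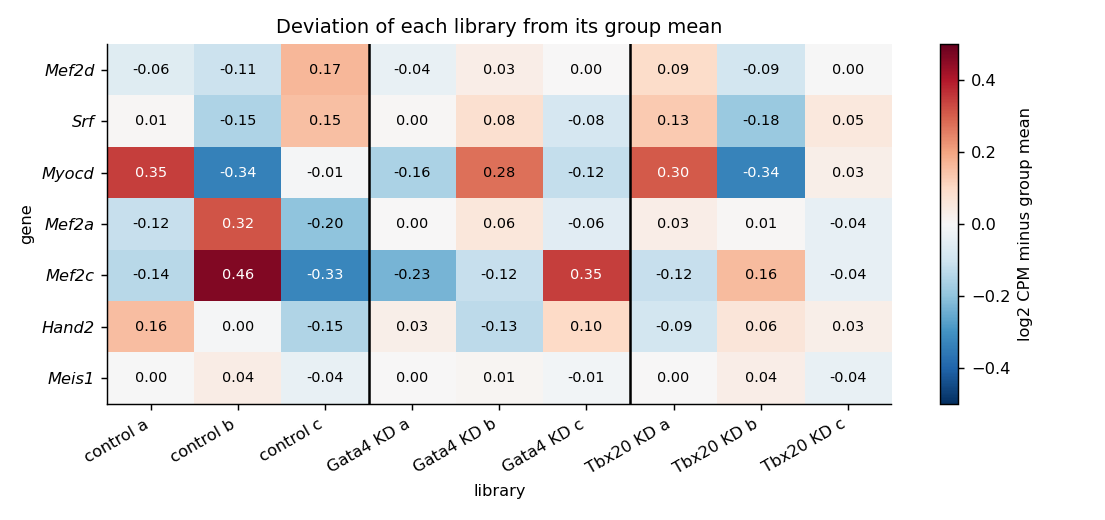
Deviation of each library from its group mean in log2 CPM (colour and printed value) for the 7 tested factors (rows) in the 9 libraries (columns; black lines part the groups). Mef2c and Srf have opposite signs in control b, Gata4 KD c and Tbx20 KD b.

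Over the 9 libraries Pearson's r of log2 CPM was 0.88 between Mef2d and Srf, 0.71 between Srf and Myocd, -0.81 between Mef2c and Srf and -0.75 between Hand2 and Mef2d; these are descriptions, since the libraries share groups and the component above. The genes most like Srf by the same measure were Nploc4 (0.974), Vasp (0.970), an actin-regulating protein, and Otud3 (0.969). For Mef2a they were Smim15, Pum2 and Osbpl8 (0.985 to 0.991), for Mef2c Tspyl1, Aph1b and Aldh6a1 (0.969 to 0.979) and for Mef2d Btbd19, Setd1a and Fam214b (0.955 to 0.968). For Hand2 they were Babam2, Bdh2 and Kank2 (0.956 to 0.963) and for Meis1 Car12, Neurl3 and Mmp10 (0.950 to 0.978). Limd1 (0.944) and Agap1 (0.930) were among those most like Myocd.

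Partners, regulators and target genes of the factors were read in 8 lists with 101 genes, of which 89 were tested. In Gata4 KD against control 1 rose and 0 fell, beside 0.380% of all genes called. In Tbx20 KD against control 0 rose or fell, beside 0.00687%. Between the knockdowns 3 were higher and 1 was lower in Gata4 KD than in Tbx20 KD, beside 1.44%. An unadjusted p under 0.05 in edgeR was found for 14, 4 and 25 of the 89 in these comparisons, beside 8.54%, 2.69% and 16.7% of all genes. The medians of the 89 log2 fold changes were 0.07, -0.04 and 0.09, beside -0.02, 0.00 and -0.01 over all genes. The genes that passed belong to 4 different lists.

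Among SRF cofactors 0 of 7 passed in any comparison, with medians of 0.14, 0.07 and 0.11. Mrtfb, the actin-regulated coactivator, was at 52.2 ± 2.49 CPM (SD, n = 3) in control, 59.0 ± 2.86 CPM in Gata4 KD and 49.3 ± 0.600 CPM in Tbx20 KD, and its adjusted p was 0.609 in Gata4 KD and 0.0627 between the knockdowns in edgeR. Elk3, an ETS factor of the ternary complex, was at 117 ± 8.30, 136 ± 3.36 and 128 ± 5.78 CPM, and Fhl2, a LIM protein that binds SRF, at 181 ± 9.25, 188 ± 38.2 and 203 ± 28.0 CPM. Of 25 cytoskeletal SRF targets 0 passed against control, with 19 values above 0 in Gata4 KD (median 0.07) and 5 above 0 in Tbx20 KD (median -0.08). Between the knockdowns 22 of 25 were above 0 (median 0.16, beside -0.01 over all genes). These genes were read in the same libraries, so their signs are not separate observations. Only Filip1l, a filamin-interacting protein, passed there, being higher in Gata4 KD than in Tbx20 KD. Against control Filip1l did not pass in Gata4 KD (log2 fold change 0.29, adjusted p 0.556 in edgeR). It was at 386, 384 and 387 CPM in Gata4 KD and 295, 289 and 311 CPM in Tbx20 KD, a log2 fold change of 0.37 (adjusted p 0.0192 in edgeR), while control ran from 275 to 377 CPM with control b highest.

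Of 10 tested immediate early and matricellular SRF targets 0 passed, with medians of 0.05, -0.23 and 0.24. Egr2, a zinc-finger factor, was at 6.07, 13.4 and 5.30 CPM in control, 11.1, 11.1 and 13.4 CPM in Gata4 KD and 8.21, 5.05 and 4.86 CPM in Tbx20 KD, with adjusted p 0.732 against control in Gata4 KD. Control b alone was at the level of Gata4 KD. Fosb, an AP-1 subunit, was at most 2.12 CPM in every library. The values of these lists rest on comparisons that share libraries, so they are set side by side only.

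Of 14 tested MEF2 regulators and partners 0 passed, with medians of 0.12, -0.02 and 0.07. Camk2d, a kinase that moves class II histone deacetylases off MEF2, was at 96.4 ± 10.4 CPM in control, 112 ± 4.05 CPM in Gata4 KD and 106 ± 2.38 CPM in Tbx20 KD. Nfatc1, a calcineurin-controlled partner, was at 25.7 ± 1.13, 22.3 ± 1.53 and 24.7 ± 1.80 CPM, and Mapk7, the ERK5 kinase that phosphorylates MEF2, at 22.6 ± 1.84, 22.8 ± 1.89 and 24.5 ± 0.512 CPM. Among 6 tested MEF2 target genes Nr4a1, an orphan nuclear receptor, rose in Gata4 KD. It was at 19.6, 26.0 and 24.0 CPM in control, 36.1, 42.3 and 42.2 CPM in Gata4 KD and 23.4, 11.9 and 16.0 CPM in Tbx20 KD. All Gata4 KD libraries lay above the other 6. The log2 fold change was 0.79 against control (adjusted p 0.0493 in edgeR) and 1.23 against Tbx20 KD (adjusted p 0.0464); Tbx20 KD against control was -0.43 (adjusted p 1.0).

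ID proteins, which bind bHLH proteins and keep them from DNA, were listed with the bHLH partners of the HAND factors. Among the 12 tested genes of this list, Id4 passed between the knockdowns. It was at 6.11, 5.94 and 6.08 CPM in Gata4 KD, 2.39, 2.76 and 2.48 CPM in Tbx20 KD and 1.99, 3.78 and 1.93 CPM in control. The log2 fold change was 1.25 against Tbx20 KD (adjusted p 0.00428 in edgeR) and 1.23 against control, where the adjusted p was 0.122. Against control Id4 passed in 5 of 14 alternative settings. Gata4 KD thus stood above both other groups, and control b was the highest of the rest.

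Of 9 TALE partners and relatives of Meis1 0 passed in any comparison, with medians of -0.05, 0.05 and 0.00. Meis2, its paralog, was at 48.7 ± 4.36 CPM (SD, n = 3) in control, 52.1 ± 3.04 CPM in Gata4 KD and 52.0 ± 1.12 CPM in Tbx20 KD. Pknox2, a TALE homeodomain protein, was at 47.0 ± 6.45, 41.9 ± 12.6 and 53.3 ± 10.3 CPM, and Pbx3, another, at 19.6 ± 1.01, 21.0 ± 0.358 and 20.2 ± 0.938 CPM. All groups overlapped for these 3 genes. Among 6 tested NK and LIM relatives and partners, Lmo4, a LIM-only adaptor, passed between the knockdowns, being lower in Gata4 KD. It was at 60.6, 59.1 and 68.1 CPM in Gata4 KD, 78.4, 82.8 and 84.1 CPM in Tbx20 KD and 81.8, 94.2 and 73.5 CPM in control. The log2 fold change was -0.38 against Tbx20 KD (adjusted p 0.0424 in edgeR) and -0.41 against control (adjusted p 0.242).

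The call of Id4 between the knockdowns held in all 14 alternative settings, and the other calls did not. Between the knockdowns, Filip1l and Lmo4 lost theirs when any library other than Gata4 KD c was left out, with adjusted p in edgeR up to 0.117 and 0.206, and Nr4a1 when Gata4 KD a or b or Tbx20 KD b or c was left out, up to 0.221. With all 9 libraries in 1 fit Filip1l and Lmo4 did not pass (adjusted p 0.145 and 0.0920), and with library size alone Nr4a1 did not (0.0513). Nr4a1 in Gata4 KD against control lost its call when any library other than control b was left out (up to 0.204), under the CPM filter (0.0511) and with all 9 libraries (0.132).

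**Figure D5:**
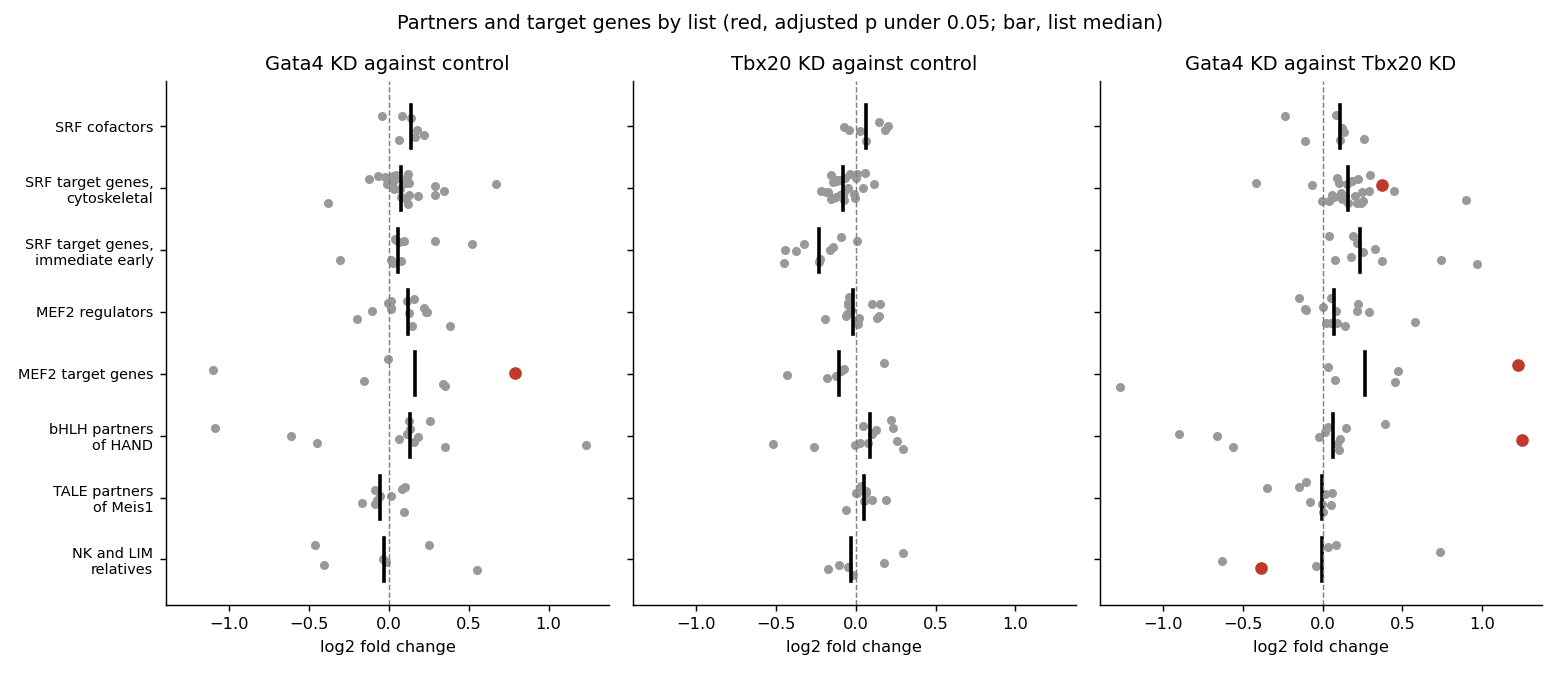
Log2 fold change (horizontal axis) of each tested partner, regulator and target gene, by list, in the 3 comparisons, with red points past an adjusted p of 0.05 and a bar at the list median. Between the knockdowns 22 of 25 cytoskeletal SRF targets lie above 0, and the red points are Filip1l, Nr4a1 and Id4 to the right and Lmo4 to the left.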

How the data were processed

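RNA of 9 libraries was read as 75 base single-end reads. Per the study's methods the authors aligned reads to GRCm38 with Bowtie2 within RSEM, counting the reverse strand; the submitters' processing notes list Bowtie, RSEM and mm9, so the aligner and the build are each stated in 2 ways, and gene identifiers rather than coordinates joined the data. The deposited values are expected counts, given as whole numbers for each gene with no scaling; RSEM divides reads shared between genes. Symbols and positions came from the GRCm38 annotation (96.6% of IDs had a symbol), and guide sequences from the study's supplement.

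Each comparison was fitted on its 6 libraries in R 4.3.3 with edgeR 4.0.16: filterByExpr, TMM factors, glmQLFit and glmQLFTest, Benjamini-Hochberg adjustment over all genes tested, threshold 0.05, no covariate. CPM used TMM factors over all 9 libraries, and log2 CPM a prior count of 2. An exact permutation test of 3 against 3 libraries cannot go below 0.1 and was not used. On simulated counts for Gata4 KD against control (14290 genes) the fit recovered 75.4% of 2-fold changes with 6.37% false calls. For Tbx20 KD against control these shares were 81.1% and 5.92%, and between the knockdowns 79.2% and 7.69%. Those counts were drawn independently for each gene and library, without the shared component described above. The recovered shares therefore need not hold for the real libraries. In the real Tbx20 KD against control the target Tbx20, at a log2 fold change of -1.35, did not pass. Changes smaller than 2-fold were not simulated. Alternatives were DESeq2 1.42.0, library size alone, no filter, CPM above 1 in at least 2 libraries, edgeR's exact test, limma-voom (limma 3.58.1), all 9 libraries, a replicate block and leaving out each library.

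The members and lists were chosen with earlier results of these data known. Named were the members, both targets, list genes past the threshold or else the 2 with the smallest p in each knockdown against control, and the 3 genes most correlated with each member among those with at least 5 CPM on average. A list gene and a correlated gene are not reported here, and the list counts leave the former out.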

Additional observations from a re-analysis of the deposited data

Results flagged for a closer look

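The effects of the knockdowns differed, by the direct test of Gata4 KD against Tbx20 KD in edgeR, for 4 genes of the partner and target lists and for 0 of the 7 tested factors. The log2 fold changes, Gata4 KD minus Tbx20 KD, were 1.25 for Id4, 1.23 for Nr4a1, 0.37 for Filip1l and -0.38 for Lmo4. Against control, in Gata4 KD and Tbx20 KD in turn, they were 1.23 and -0.01 for Id4, 0.79 and -0.43 for Nr4a1, 0.29 and -0.07 for Filip1l, and -0.41 and -0.01 for Lmo4. Of these, Nr4a1 in Gata4 KD passed an adjusted p of 0.05. Over the 14 alternative settings of Gata4 KD against control, Nr4a1 passed in 6, Id4 in 5, Filip1l in 1 and Lmo4 in 0.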

How the results depend on the processing

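None of the 294 alternative values of the 7 tested factors passed an adjusted p of 0.05; 283 kept their sign and 11 turned, all in fits without 1 library. Over those fits the log2 fold change in Gata4 KD against control ran from -0.22 (without Gata4 KD c) to 0.23 (without control b) for Mef2c and from -0.29 (without control b) to 0.065 (without control a) for Myocd. In Tbx20 KD against control it ran from -0.047 (without control c) to 0.23 (without control b) for Mef2a, from -0.011 (control c) to 0.42 (control b) for Mef2c, from -0.062 (Tbx20 KD a) to 0.076 (control c) for Mef2d and from -0.12 (Tbx20 KD a) to 0.027 (Tbx20 KD b) for Srf. Genes of the partner and target lists that turned in that comparison, none of them called there, were Filip1l (-0.17 to 0.087), Id4 (-0.17 to 0.39) and Lmo4 (-0.093 to 0.093) without 1 library. Id4 also turned with library size alone (0.0062) and limma-voom (0.058). The cause was not tested.

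Counts of calls moved more than the factors did. List genes called in Gata4 KD against control were 1, and 3 with DESeq2, 2 with no filter, 0 with the CPM filter, 4 with the exact test and 0 to 4 without 1 library (0 without control a, 4 without control b). Between the knockdowns they were 4, and 15, 9 and 13 with DESeq2, no filter and the exact test, and 1 to 12 without 1 library (1 without Gata4 KD a, Tbx20 KD b or Tbx20 KD c, 12 without Gata4 KD c). All genes called were 55, 1 and 208 in the 3 comparisons, and with DESeq2 273, 10 and 761, with no filter 121, 2 and 324, with the exact test 250, 8 and 729, and with all 9 libraries 148 in Gata4 KD against control. Without 1 library they ran from 6 (control a) to 189 (control b), from 1 to 5 (control b) and from 22 (Gata4 KD a) to 801 (Gata4 KD c). MEF2 shares moved with the longest transcript, to 52.3%, 55.5% and 53.4% for Mef2a, 6.06%, 5.41% and 6.65% for Mef2c and 41.6%, 39.1% and 40.0% for Mef2d in control, Gata4 KD and Tbx20 KD, since that length sets the scale of each gene.

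Deviations of libraries with the same letter had Pearson's r of -0.17 to 0.25 over 9 pairs, beside -0.39 to 0.35 over 18 pairs with different letters. The letters thus showed no pairing in this check. Whether they mark shared cell preparations is not given and was not tested. With the replicate block the list genes called were 0 in Gata4 KD against control and 2 between the knockdowns, the all-gene counts were 5, 2 and 101, and Id4 in Tbx20 KD against control turned to 0.058. Id4 kept its call under the block, whereas Nr4a1 against control (adjusted p 0.118 in edgeR) and Filip1l, Lmo4 and Nr4a1 between the knockdowns (0.0574, 0.0574 and 0.0827) did not pass. At this depth Nkx2-5, Isl1 and Hand1 could not be compared, and against control the 95% intervals reached from -0.56 to 0.59 on the log2 scale for Mef2c and from -1.18 to 0.45 for Myocd.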
